A study of Mus musculus with 3 samples.

Results

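Of 1256 regions listed from Nrf2 chromatin immunoprecipitation sequencing (ChIP-seq) in mouse embryonic fibroblasts, 684 were tall and stood alone. They were chosen by 4 conditions: a deposited height of 9 or more, a place on one of the 19 autosomes, a start at 3.1 Mb or later, and more than 20 kb to the listed region on either side. Height, the signal at the highest position of a region, therefore chose these regions and is described here without a test. Another 301 regions met the same conditions except that their height was under 9, and they serve as the comparison. Tall regions made up 69.4% of the 985 regions standing alone (exact 95% interval 66.5 to 72.3%).

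Nrf2 is a transcription factor with a basic leucine zipper. It pairs with a small Maf protein and binds antioxidant response elements, short DNA motifs found near genes for glutathione synthesis, thioredoxin recycling, quinone reduction and heme breakdown. Keap1 normally holds Nrf2 for ubiquitination, so cells without Keap1 keep Nrf2 stable and in the nucleus with no added inducer. In ChIP-seq, a factor held at 1 site on the DNA gives a single pile of fragments around that site, and the height of the pile reflects how many fragments were recovered there.

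All libraries came from Keap1-/- MEFs of strain CD-1, and the labels give a stage of 8 to 10 weeks for these cells. The 3 groups were a library made with a rabbit monoclonal antibody against the C-terminal domain of Nrf2, a library made with a rabbit polyclonal antibody against the N-terminus, and a control. The control is labelled as an anti-rabbit IgG antibody, whereas the study's design text calls it input DNA. Each group held 1 library, no cells with Keap1 were among the samples, and the labels do not say how many embryos or clones the cells came from. The list gives 1 height per region with no value for a single library, so the antibodies and the control could not be compared, and the depth of the libraries is unknown. Positions are those of the mm9 build as deposited. Regions are given without their sequences or genes, since mm9 sequence and annotation were not used here. The list holds no expression values, so the fibroblast identity of the cells, a matter of marker genes, could not be checked.

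The list held 886 regions of height 9 or more in all. Of these, 2 lay on X or Y, 22 lay on autosomes before 3.1 Mb, and 178 were within 20 kb of another listed region, which leaves the 684. The 178 crowded tall regions had a similar height, with a median of 11.4 (95% interval 10.9 to 11.8) against 11.6 (11.2 to 11.9) for those standing alone. These intervals cover the spread over regions only, and no library was replicated.

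Most of the 684 regions lay near the lower end of the range. Their heights ran from 9 to 122.128 with the middle 50% between 9.89 and 15.3. A height above 12 was reached by 313 regions (45.8%), a height above 20 by 77 (11.3%), a height above 30 by 26 (3.80%) and a height above 50 by 3 (0.439%). Few regions thus carried the greatest heights, and the tail was long: the tallest region was more than 10 times as high as the median.

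The number of regions standing alone changed sharply at the threshold. From 8.75 to 9 there were 16 regions and from 9 to 9.25 there were 58. In steps of 1, the counts were 35 from 7 to 8, 33 from 8 to 9, 197 from 9 to 10 and 101 from 10 to 11. The threshold falls where the distribution steps up, and it was chosen with earlier results of these data known. Under 9, the counts fell from 161 regions at 5 to 6 to the 33 at 8 to 9. The origin of the step was not tested. Just inside the threshold, 6 regions had a height of exactly 9, on chromosomes 1, 5, 8, 12, 14 and 16, and the next was chr3:88269089-88269471 at 9.004. Just outside it were chr3:38362067-38362358 at 8.996, chr1:180248213-180248582 at 8.952, chr16:24737818-24738109 at 8.913, chr11:11823442-11823802 at 8.875 and chr8:128143436-128143791 at 8.843. Heights deposited as whole numbers, with no decimals, were found in 14 of the 684 tall regions (2.05%) and in 31 of the 301 lower ones (10.3%).

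**Figure D1:**
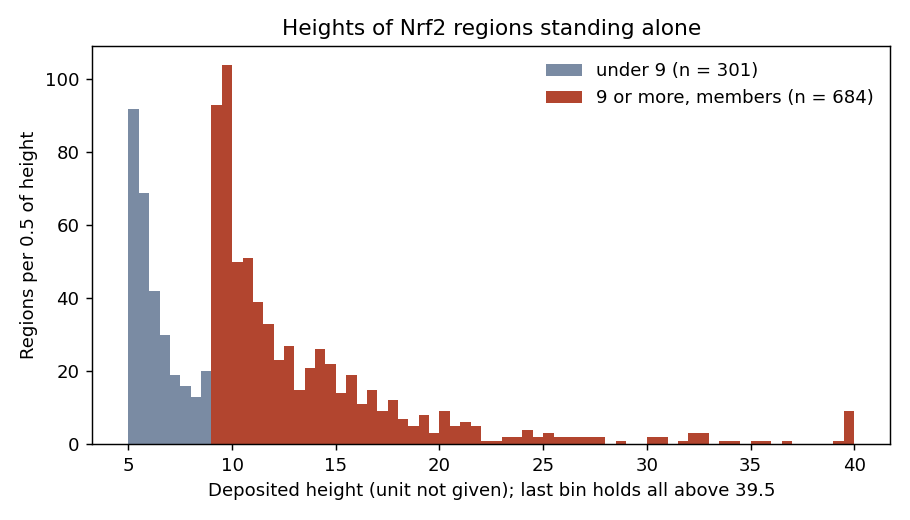
Histogram of the deposited height (x axis, unit not given) of autosomal regions standing alone, as regions per 0.5 of height (y axis), with regions under 9 in blue-grey and the 684 regions of 9 or more in red. The counts fall from 5 towards 9, step up at 9 and then fall again, and the last bar gathers the highest regions.

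The 10 tallest regions standing alone fell into 2 shapes. In 7 of them the highest position lay within 4 to 24.5 bp of the middle of the region, and the regions were 309 to 354 bp wide. The tallest of these was chr17:46207075-46207425, which reached 67.583 with its highest position 12 bp from the middle. The region chr14:75133233-75133542 followed at 47.388, and chr10:69427365-69427681 at 45.266, only 4 bp from the middle. Further down were chr9:32788567-32788897 at 43.433, chr13:34490749-34491063 at 42.779, chr17:91006056-91006410 at 40.223 and chr10:82276850-82277196 at 39.303.

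The other 3 of the 10 tallest were narrow and lopsided, and they included the tallest and the second tallest of the regions standing alone. The region chr2:98505263-98505490, with the height of 122.128, was 227 bp wide and peaked 38 bp from its start, 33.3% of its width away from the middle. The region chr12:75905342-75905601 reached 79.477 over 259 bp and peaked 61 bp from its start, 26.4% of the width from the middle. The region chr5:115372535-115372748 reached 45.998 over 213 bp and peaked 29 bp from its start, 36.4% of the width from the middle. All 3 peaked towards the start of the region. Whether repeated or copied sequence lies in these regions was not tested.

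Across the 684 tall regions, such lopsided shapes were rare. The highest position lay at a median of 14 bp from the middle of the region (95% interval 12.5 to 15), or 3.99% of the width (3.56 to 4.27%). In 410 regions (59.9%) it lay within 5% of the width from the middle. It lay more than 25% of the width away in 16 regions (2.34%, exact 95% interval 1.34 to 3.77%), a limit that was set after the positions had been seen. Of these 16, 13 were narrower than 300 bp, while the narrowest 25% of all 684 were at most 321 bp wide. The distance is divided by the width, so a narrow region passes 25% with fewer bp. Among the lower regions, 19 of the 22 beyond 25% were also narrower than 300 bp. The narrowest 25% of all 301 lower regions were at most 290 bp wide. The share of all regions narrower than 300 bp was not computed for either set. Of the 16 tall regions, 8 peaked nearer to the start and 8 nearer to the end. The 3 tallest of the 16 are those named above, and the next was chr12:68160832-68161064, with a height of 21.207 and a highest position 28 bp from its start. The most lopsided was chr11:108872872-108873082, which reached 15.724 and peaked 8 bp from its end.

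The lower regions standing alone were less well centred. Their highest position lay at a median of 24 bp from the middle (20.5 to 29), or 7.24% of the width (6.18 to 8.42%), and more than 25% away in 22 of 301 regions (7.31%, interval 4.64 to 10.9%). In the crowded tall regions the median was 7.98% of the width (6.17 to 10.8%), and 40 of 178 (22.5%) peaked more than 25% away. Height, width and the highest position come from the same calls, so these differences are described and not tested.

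The highest position lay nearer to the middle in taller regions, with most of the change between heights of 6 and 12. The median distance from the middle was 24.5 bp for heights of 5 to 6 (95% interval 20 to 32), 23.75 bp for 6 to 9, 18.5 bp for 9 to 10 and 13.5 bp for 10 to 12. It was 13.75 bp for 12 to 15, 13.5 bp for 15 to 20, 11 bp for 20 to 30 and 10.75 bp for heights of 30 or more (9 to 15). The share of lopsided regions did not follow the same course. It fell from 15 of 161 regions (9.32%) at 5 to 6 to 6 of 197 (3.05%) at 9 to 10 and 1 of 134 (0.746%) at 12 to 15, but was 3 of 26 (11.5%, exact 95% interval 2.45 to 30.2%) at 30 or more. With 26 regions in that class the interval is wide and takes in the shares of 4 of the other 7 classes. Over the 684 regions, Spearman's rho between height and distance from the middle in percent was -0.16, a description across regions that share the same libraries.

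**Figure D2:**
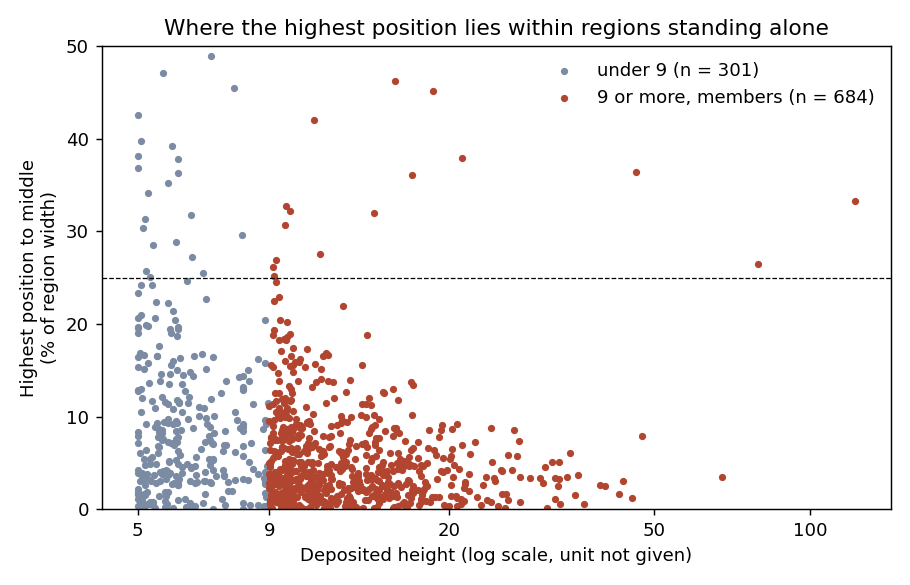
Distance of the highest position from the middle of the region, in percent of its width (y axis), against deposited height on a log scale (x axis), for the 684 tall regions (red) and 301 lower regions (blue-grey) standing alone; the dashed line marks 25%. Most points sit close to 0 and draw closer with height, while 3 of the 10 tallest lie above the dashed line.

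Tall regions standing alone were uniform in width. Their median width was 350 bp (95% interval 346 to 353) and the middle 50% lay between 321 and 385 bp, with a range of 187 to 665 bp. Their width averaged 359 ± 59.4 bp (SD, 684 regions). Lower regions standing alone had a median of 335 bp (325 to 347) and averaged 345 ± 78.6 bp (SD, 301 regions), and crowded tall regions varied more still, at 365 ± 151 bp (SD, 178 regions). The width also varied less in the taller classes, with no step at the threshold of 9. The SD over regions was 86.1 bp at heights of 5 to 6, 69.2 bp at 6 to 9 and 68.4 bp at 9 to 10. It was 40.4 bp at 20 to 30 and 43.6 bp at 30 or more. The tallest regions were no wider than the others, with a median of 339.5 bp at heights of 30 or more against 353 bp at 9 to 10, and Spearman's rho between height and width over the 684 regions was -0.12.

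All 19 autosomes carried tall regions standing alone, from 10 on chromosome 18 to 64 on chromosome 1, in counts not scaled to chromosome length. Chromosome 10 followed with 61 and chromosome 15 with 49. These 2 chromosomes also had the lowest share of tall regions among those standing alone, 57.0% of 107 (exact 95% interval 47.1 to 66.5%) and 57.6% of 85 (46.4 to 68.3%). The highest shares were 84.4% of 32 regions on chromosome 4 (67.2 to 94.7%), 83.3% of 12 on chromosome 18 (51.6 to 97.9%) and 82.9% of 41 on chromosome 13 (67.9 to 92.8%). The interval of chromosome 10 lay below that of chromosome 4, while that of chromosome 15 overlapped it, and no test over chromosomes was run.

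Chromosome 13 had the highest median height among its tall regions, 14.8 over 34 regions, with 7 of them above 20. Chromosome 10 had the lowest, 10.3 over 61 regions, and also had 7 above 20. Chromosomes 2 and 17 each held 8 regions above 20, while chromosome 18 held none and its tallest, chr18:68600258-68600590, reached 16.252. On chromosome 12 the median of 23 regions was 11.1 and the tallest was the lopsided region of 79.477, and on chromosome 11 the median of 37 was 11.5 and the tallest, chr11:85064024-85064435, reached 36.597. The tallest on chromosome 1 was chr1:167699347-167699686 at 35.568, and on chromosome 16 it was chr16:11456386-11456741 at 34.398.

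**Figure D3:**
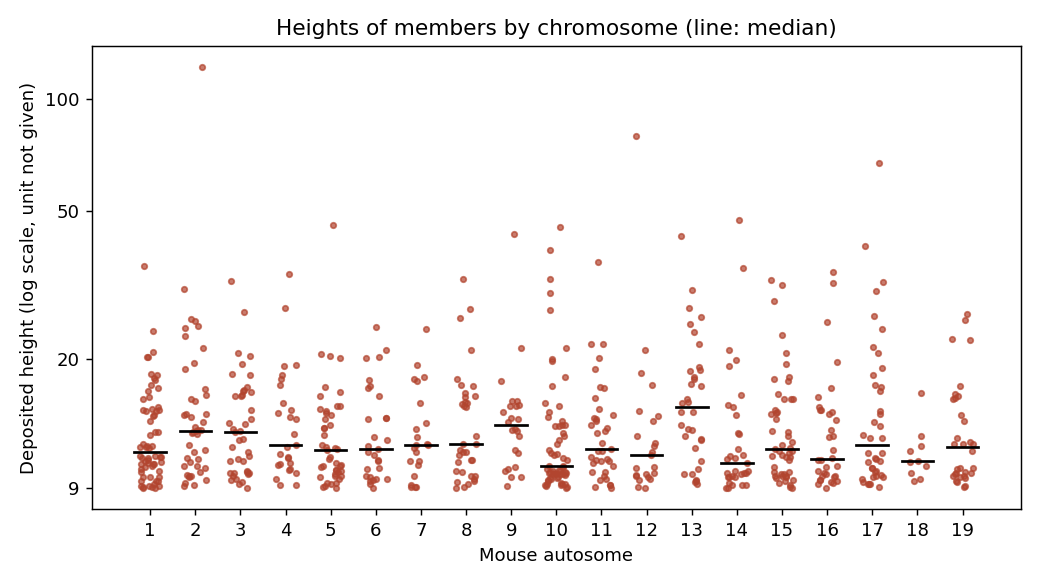
Deposited height on a log scale (y axis, unit not given) of each of the 684 tall regions standing alone, by mouse autosome (x axis); each point is a region, spread sideways at random within its chromosome, and black lines mark medians. Medians run from 10.3 on chromosome 10 to 14.8 on chromosome 13, and the highest point, at 122.128, is on chromosome 2.

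Beyond the gap of 20 kb that the choice required of both sets, no difference in spacing between tall and lower regions standing alone passed a test. The nearest listed region lay at a median of 524 kb from a tall region (95% interval 429 to 590) and 567 kb from a lower one (457 to 688). It lay within 100 kb for 121 of 684 tall regions (17.7%) and 40 of 301 lower ones (13.3%), a difference of 4.40 percentage points (Newcombe 95% interval -0.665 to 8.94, two-sided Fisher's exact p = 0.0925, Benjamini-Hochberg adjusted p = 0.244 over 10 shares tested). Within 1 Mb it was 70.5% against 67.8%, a difference of 2.69 points (-3.45 to 9.08, Fisher's exact p = 0.409, adjusted p = 0.454). Highest positions lay beyond the midpoint of the listed length of their chromosome in 376 tall regions (55.0%) and 150 lower ones (49.8%), a difference of 5.14 points (-1.61 to 11.9, Fisher's exact p = 0.146, adjusted p = 0.244). None of the 10 shares passed an adjusted p of 0.05, and 0 passed it unadjusted. The tests treat regions as independent, which neighbours are not. The distance limits are nested cuts of the same measure, the gap that the choice also used. The share whose nearest region stands alone rests on gaps too. These tests therefore cannot decide whether spacing differs apart from the choice, and no conclusion is drawn from them. An interval that takes in 0 does not show that the shares are equal.

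Some tall regions lay not far from another. Pairs of neighbouring members with gaps of at most 50 kb numbered 26, of which 6 had gaps of at most 30 kb. The closest pair was on chromosome 1, where chr1:71577342-71577763 with a height of 17.756 and chr1:71598843-71599174 with a height of 20.282 were 21.1 kb apart. On chromosome 15, chr15:100057551-100057870 at 23.27 stood 24.0 kb from chr15:100081908-100082252 at 10.981. On chromosome 19, chr19:12538684-12539083 at 25.425 stood 27.4 kb from chr19:12510967-12511300 at 9.329. At the other extreme, chr2:84366443-84366763, with a height of 11.42, had no other listed region within 7819.6 kb.

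Among the 26 tall regions of height 30 or more, 4 had a nearest region that also reached 30. The nearest region could be any of the 1256 listed. The share of all listed regions reaching 30 was not computed, so the 4 have no base share beside them. The 4 formed 2 pairs, each counted from both sides. On chromosome 10, chr10:82276850-82277196 at 39.303 and chr10:82321686-82322042 at 30.079 were 44.5 kb apart. Their highest positions lay 9 and 12 bp from the middle, and their widths were 346 and 356 bp. On chromosome 17, chr17:91006056-91006410 at 40.223 and chr17:92948138-92948490 at 32.178 were 1942 kb apart. In the whole list, 886 of the 1256 regions had a height of 9 or more. The nearest region had such a height for 498 of the 684 tall regions (72.8%) and 198 of the 301 lower ones (65.8%). Where the nearest region lay within 1 Mb, the shares were 353 of 482 (73.2%) and 129 of 204 (63.2%). Within 100 kb they were 93 of 121 (76.9%) and 24 of 40 (60%). These shares use height, the measure that chose the regions, and count a neighbouring pair from both sides, so they are a description. Over the 684 regions, Spearman's rho between height and the distance to the nearest region was -0.022.

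**Figure D4:**
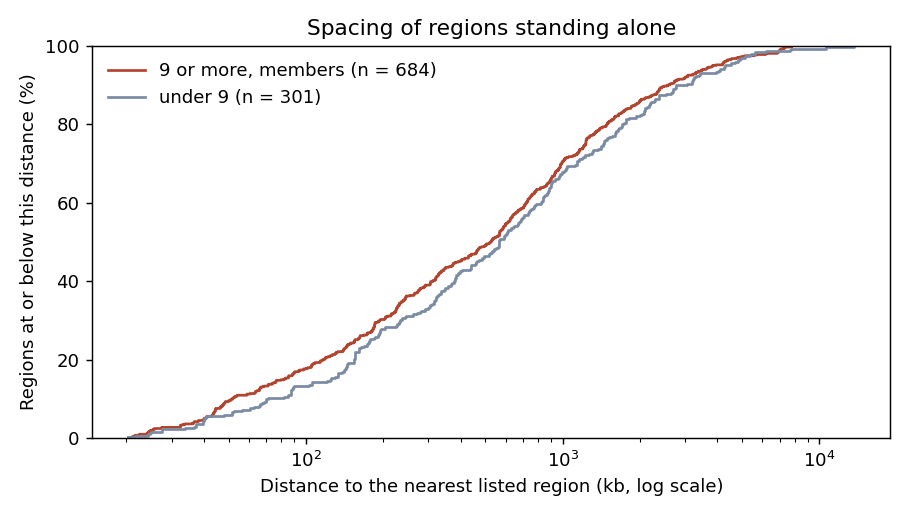
Cumulative share of regions (y axis, percent) whose nearest listed region lies at or below a distance (x axis, kb, log scale), for the 684 tall regions (red) and the 301 lower regions (blue-grey) standing alone. The curves run close together, with medians of 524 and 567 kb.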

How the data were processed

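The deposited file, per the file headers, lists chromosome, start, end, highest position and height. The height is a signal value made by the authors; its unit, normalization, caller, thresholds and the way libraries were combined were not given in the sources used here. Positions are in mm9, per the submitters' processing notes. Whether positions count from 0 or 1 is not stated.

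Gaps run from the end of a region to the start of the next, and a missing neighbour counted as far. The members, limits and measures were chosen with earlier results of these data known. The naming rule was the 10 tallest members and the 5 regions on either side of the threshold (6 inside, since heights tied); other regions were named after their values were seen. Medians have order-statistic intervals at 95%, and shares have Clopper-Pearson intervals; both cover counting over regions only. The 10 shares of spacing and position were tested with two-sided Fisher's exact tests and Benjamini-Hochberg adjustment. They were not among the planned tests, which concerned sequence and start sites. Another 3 shares of neighbour height were examined too and kept as description. The listed length of a chromosome ends at its last region. A single comparison of shares was tested on simulated data of the same group sizes. Regions were drawn independently there, so dependence between neighbours and overlap between the shares were not simulated. Tests ran in scipy 1.17.1 and statsmodels 0.14.6 under Python 3.11.15, with pandas 2.3.3, matplotlib 3.10.9 and numpy 2.4.6. Motifs, base composition, repeats, start sites and gene lists had been planned and were not analysed here, since they need mm9 sequence or annotation.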

Additional observations from a re-analysis of the deposited data

How the results depend on the processing

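With a threshold of 12, the 684 members became 314, their median height rose from 11.6 to 15.8 by construction, and the median distance of the highest position from the middle was 3.50% of the width in place of 3.99%. The lower set stayed at heights under 9, so regions from 9 to under 12 were in neither set. With gaps above 100 kb there were 563 members and with gaps above 1 kb there were 762. Under these settings and without the tallest 1% of members, median width and the share of lopsided regions stayed within the interval of the value reported. Of 38 differences in share recomputed under these settings, 37 kept their direction and none passed an adjusted Fisher's exact p of 0.05 (the smallest was 0.190). The settings share many regions and the distance limits are nested, so a kept direction is not independent support. The difference for a nearest region within 500 kb turned from 2.61 to -0.126 points with gaps above 100 kb, and the cause was not tested. Shares within 50 and 100 kb have no value with that gap. The threshold of 12 and the other gaps were planned for the number of members, and their use for other values was chosen after seeing the data. Alternatives on motifs, repeats and start sites were not run. No paired analysis was possible because each group held 1 library and the list has no values per library. Depth is unknown, so the counting error of the heights could not be computed.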
